A study of Homo sapiens with 12 samples.

Results

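Exogenous NRF2 was compared with GFP in Hs 578T cells that had cystine in their medium. The comparison rests on 6 of the 12 libraries of the series, chosen by their genotype and medium labels, 3 called NRF2 with Cyss and 3 called GFP with Cyss (Cyss stands for cystine). Hs 578T is a human triple-negative breast cancer line of mesenchymal character. Both populations were transduced with lentivirus, the NRF2 population with full-length NRF2 and the control population with GFP. Both grew for 8 h in cystine-free DMEM to which 10% fetal bovine serum, methionine, glutamine and antibiotics had been added, and these groups also received 0.8 mM L-cystine. The other 6 libraries came from the same kinds of cells without added cystine and are used here only for the comparison of media. The cells were transduced populations for which no cloning step is described, and the promoter of the vector was not given in the sources used here. Nothing in the labels says that replicates were separate cultures, so p-values measure only the spread between these libraries.

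NRF2, encoded by NFE2L2, is the transcription factor of the cellular response to electrophiles and oxidants. In unstressed cells the adaptor KEAP1 presents it to a CUL3 ubiquitin ligase, and the protein is degraded. When KEAP1 cysteines are modified, NRF2 accumulates, pairs with small MAF proteins and binds antioxidant response elements (AREs) in genes for glutathione synthesis, thioredoxin recycling, quinone and carbonyl reduction, iron handling and NADPH supply. These genes are called canonical targets below, and they were drawn from 7 lists holding 77 genes. A protein can be regulated without its mRNA, so only mRNA levels are described.

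The GFP with Cyss libraries held 37871221 to 44596870 gene counts (median 38061180) and the NRF2 with Cyss libraries 27250993 to 31402333 (median 30123150), so the depth of the groups did not overlap. Values below are normalized counts, that is counts divided by a library factor (TMM) computed on these 6 libraries, and they are not corrected for gene length. Counts between replicates differed by more than sampling noise in all 6 replicate pairs (chi-square over its degrees of freedom 2.22 to 7.08). All 9 mesenchymal markers had enough reads to be tested. VIM (vimentin), one of them, had 151818, 160161 and 158891 normalized counts in the GFP libraries. The labels call the line epithelial. CDH1 (E-cadherin) had at most 9.85 normalized counts in any of the 6 libraries and EPCAM at most 0.91. Not all such markers were absent, since 6 of 12 epithelial and hormone receptor markers had enough reads to be tested. None of 9 mesenchymal markers was differentially expressed. In bulk RNA, fewer cells of a kind and less RNA per cell cannot be told apart.

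NFE2L2 was examined first, since it checks the labels. The gene lies on chromosome 2, from 178083395 to 178257484 in GRCh37 (hg19), and its exons overlap AGPS and HNRNPA3 on the opposite strand. Its normalized counts were 3911, 3788 and 3980 in the GFP libraries and 6835, 6856 and 7195 in the NRF2 libraries. The groups did not overlap, and the mean rose 1.79-fold (log2FC 0.84, SE 0.0379, Benjamini-Hochberg adjusted p 9.77e-11 by edgeR's quasi-likelihood test). The exact two-sided permutation test of 3 against 3 libraries gave p = 0.1, the smallest p this design allows. Reads of the endogenous and exogenous mRNA were counted together, so this is the sum of both.

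Among the 12 genes of NRF2 and its regulators, NFE2L2 was the only gene called differentially expressed, with a rule given below, and the other 11 had a 95% interval of the log2FC within 0.32 in size. KEAP1, the repressor of NRF2, had normalized counts of 2443, 2581 and 2361 in the GFP libraries and 2997, 2650 and 2763 in the NRF2 libraries. The groups did not overlap, and the log2FC of 0.19 (SE 0.0485) passed the test (Benjamini-Hochberg adjusted p 0.0423 by edgeR's quasi-likelihood test) but not the fold threshold. SQSTM1, the autophagy receptor that sequesters KEAP1, and MAFG, a small MAF partner of NRF2, likewise passed the test below the fold threshold, with log2FC of 0.23 and 0.15. The ligase subunit CUL3 had a log2FC of -0.06 and BACH1, the repressor that competes for AREs, -0.00173.

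Across the transcriptome, genes were called differentially expressed (DEGs) when the adjusted p was under 0.1 and the log2FC exceeded 0.32 in either direction. Of 17420 genes tested, 245 were upregulated (1.41%) and 38 downregulated (0.218%), 283 in all (1.62%), so that 86.6% of the DEGs rose. Most changes were small. The median log2FC was 0.57 over the upregulated DEGs, -0.47 over the downregulated ones and -0.00173 over all genes tested, and 76 upregulated and 9 downregulated DEGs differed by more than 2-fold. The fitted log2FC of genes with few or no reads in GFP cells depends on the prior count of the fit and is no measure of size. Low expression was common, since 73 upregulated and 12 downregulated DEGs averaged under 50 normalized counts in the higher group. The 3 NRF2 libraries lay above the 3 GFP libraries for 242 of the 245 upregulated DEGs, where 12.6% of all genes tested did so, and below them for all 38 downregulated DEGs, where 12% did so.

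These counts leaned on single libraries. The number of upregulated DEGs was 142 without NRF2 with Cyss replicate 1, 155 without NRF2 with Cyss replicate 3 and 167 without GFP with Cyss replicate 3, and 100 of the 245 were called in all 6 leave-one-out fits, each without 1 library. Of the 38 downregulated DEGs, 6 were called in all 6 fits, and the count ran from 15 (without NRF2 with Cyss replicate 3 and without GFP with Cyss replicate 3) to 56 (without GFP with Cyss replicate 2), with 18 without NRF2 with Cyss replicate 1 and 24 without NRF2 with Cyss replicate 2. With DESeq2's Wald test the counts were 91 and 14, and 5742 genes got no adjusted p. With that test's independent filtering and outlier cutoff off, the counts were 154 and 15. After every library was thinned to the size of the smallest, 213 genes were upregulated, 180 of them among the 245, and 38 were downregulated, 24 of them among the 38.

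Of the 77 canonical targets, 72 could be tested, and 22 of them were upregulated, where the share among all genes was 1.41%. None was downregulated. AKR1C4, ALDH3A1, GPX2 and UGT1A6 had too few reads to be tested, and NMRAL1P1 was not analysed here. The median log2FC of the 72 was 0.23, and 65 were higher in NRF2 cells. A further 18 rose with an adjusted p under 0.1 but by less than the fold threshold, 1 (TXNIP, the inhibitor of thioredoxin) fell by 0.18 on the log2 scale in the same manner, and 31 did not pass the test, of which 25 had a 95% interval within 0.32 in size. The intervals of the other 6, ABCB6, GGT1, GSTM2, RRAGD, SLC48A1 and SRXN1, reached past 0.32, so a change of that size was not detectable or excluded at this depth. The NRF2 libraries lay above all GFP libraries for 46 of the 72. Of the 41 targets whose GFP mean reached 1000 normalized counts, 9 were upregulated, and AKR1C1 was the only gene among them that rose more than 2-fold, as 7 of the 72 did in all. With no low-count filter, other scalings, thinning or any library left out, 19 to 24 of the targets were upregulated, and with DESeq2's Wald test 15.

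The aldo-keto reductases, which reduce aldehydes and ketones with NADPH, held the largest share of DEGs among the canonical lists. Of 8 tested members 6 were upregulated, with a median log2FC of 0.95. AKR1C1, a reductase of steroids and lipid aldehydes, had normalized counts of 1251, 1254 and 1215 in the GFP libraries and 3169, 3087 and 3086 in the NRF2 libraries. The groups were far apart, by 2.51-fold (log2FC 1.33, SE 0.0408, Benjamini-Hochberg adjusted p 3.42e-13 by edgeR's quasi-likelihood test). AKR1C2, its close paralog, had 34.5, 25.6 and 30.8 against 126, 143 and 142, which was 4.56-fold (log2FC 2.19, SE 0.146). AKR1C3, a prostaglandin and steroid reductase next to both on chromosome 10, had 410, 459 and 444 against 625, 615 and 566 (log2FC 0.46, SE 0.0661). All 3 rose, and in none did the groups overlap. AKR1C2 was not called with DESeq2's Wald test, but was called with that test's independent filtering off.

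AKR1B10, a retinal and lipid aldehyde reductase, had 112, 111 and 102 normalized counts in the GFP libraries and 283, 299 and 301 in the NRF2 libraries (2.71-fold, log2FC 1.44, SE 0.0890). AKR1B15 next to it had 18.2, 20.1 and 17.2 against 42.9, 46.0 and 55.7 (log2FC 1.37). AKR1B1, aldose reductase, was far more abundant, with 9904, 10993 and 10913 against 15585, 15457 and 16262 (log2FC 0.57, SE 0.0410). Reads of such paralogs are hard to separate. Processed copies moved with their parent genes, AKR1B10P1 by a log2FC of 1.04 and AKR1B1P1, AKR1B1P2 and AKR1B1P7 by 0.41, 0.58 and 0.42, so these 4 DEGs, like AKR1B15 and AKR1C2, may hold reads of their paralogs and are uncertain. AKR1B10P1 lost its call without any single NRF2 with Cyss library or GFP with Cyss replicate 3 (range 0.88 to 1.21), AKR1B1P1 without NRF2 with Cyss replicate 2 or 3 or GFP with Cyss replicate 1 or 3 (0.34 to 0.50) and AKR1B1P7 without NRF2 with Cyss replicate 3 (0.31 to 0.47). AKR1B15, AKR1B10P1 and AKR1B1P1 were not called with DESeq2's Wald test, and of these only AKR1B15 was called with its independent filtering off. AKR7A2 and AKR1A1, the remaining members, had log2FC of 0.18 and 0.09.

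ARE-type sequence near the gene start is shown for 7 of these targets, because it was present both in some that were upregulated and in some that were not. Promoters of 250 bases before to 50 bases after the start were taken from RefSeq (GRCh38.p14), a table with 1 start used a gene, and were located in GRCh37 by exact match. The motifs searched on both strands were TGACNNNGC, the ARE core, and TGAGNNNGC, a variant of it. They cannot both match the same letters in the same place, but shifted matches can overlap. Of all 27305 promoters in the table, 13.6% held the former and 29.4% held either. Of the 22 upregulated targets 14 had an entry. ABCC3, AKR1B10, AKR1B15, CES1, HMOX1, PANX2, SLC7A11 and TRIM16L had none. With entries for 53 of the 72 targets and 149 of the 245 upregulated DEGs, under 80% in both cases, a comparison of shares between these sets is void and none is made. Capitals mark the motif, read 5′ to 3′ along the gene's own strand.
AKR1C1, upregulated, chr10:5005557-5005583, plus strand: aggggcgttGCCAGCTCAttgctctta
AKR1C2, upregulated, chr10:5046077-5046103, minus strand: aggggcgttGCCAGCTCAttgctctta
OSGIN1, upregulated, chr16:83986737-83986763, plus strand: cgggcccctGCTGACTCAcgcttatga
TXNRD1, upregulated, chr12:104609449-104609475, plus strand: cacgggctaTGACTTCGCtgttgtcac
GCLM, not called, chr1:94375003-94375029, minus strand: acgatttctGCTTAGTCAttgtcttcc
ME1, not called, chr6:84140890-84140916, minus strand: ctcctgccaTGACTCAGCgcttctcgc
GSTP1, not called, chr11:67351208-67351234, plus strand: ccggcgccgTGACTCAGCactggggcg
The windows of AKR1C1 and AKR1C2 are identical over these bases and, like that of OSGIN1, hold TGAGNNNGC on the opposite strand, while the log2FC of these 3 genes were 1.33, 2.19 and 1.03. GCLM holds TGACNNNGC on the opposite strand, with a log2FC of 0.24. TXNRD1, ME1 and GSTP1 hold TGACNNNGC on the gene's strand, with log2FC of 0.35, 0.24 and 0.14. Only 1 match is shown for each gene, and the promoters of TXNRD1, ME1, GSTP1 and GCLM hold another. Among targets not shown, LUCAT1, upregulated, holds TGACNNNGC and NQO1, not called, holds TGAGNNNGC, both on the opposite strand. A match is a description of the letters and says nothing of binding.

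In glutathione synthesis, reduction and export, 4 of 12 tested genes were upregulated and the median log2FC was 0.24. SLC7A11, the cystine importer xCT, had normalized counts of 6009, 4889 and 5064 in the GFP libraries and 8738, 8434 and 7714 in the NRF2 libraries. The groups did not overlap (1.56-fold, log2FC 0.64, SE 0.0613), although GFP replicate 1 stood above the other GFP libraries. Reads were counted without regard to strand, so the antisense transcript SLC7A11-AS1 (log2FC 0.86) cannot be told apart from the gene where they overlap. GCLC, the catalytic subunit of the enzyme that commits cysteine to glutathione, had 1807, 1775 and 1742 against 2464, 2519 and 2503 (log2FC 0.49, SE 0.0400). GCLM, the modifier subunit of that enzyme, had 4475, 3559 and 3667 against 4803, 4566 and 4493. Here the groups were close to touching, because GFP replicate 1 was high, and the log2FC of 0.24 (SE 0.0630) stayed below the threshold, whereas without that library GCLM had a log2FC of 0.35 and was called.

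The conjugate exporters ABCC3 and ABCC2 were upregulated by log2FC of 0.60 and 0.50. ABCC2 lost its call without NRF2 with Cyss replicate 1 or 2 or GFP with Cyss replicate 3, with a log2FC between 0.41 and 0.60 over the leave-one-out fits. It was also not called with DESeq2's Wald test, with or without independent filtering. GSR, which regenerates reduced glutathione, rose by 0.24 on the log2 scale and passed the test but not the fold threshold, as did ABCC1 (0.18) and SLC3A2 (0.13), the partner subunit of xCT. GSS, the second enzyme of glutathione synthesis, had 1442, 1578 and 1517 against 1480, 1498 and 1597. Its groups overlapped, and its log2FC of 0.01 had a 95% interval from -0.09 to 0.11. GPX4, the peroxidase that guards membrane lipids, had a log2FC of 0.13 with an interval from 0.03 to 0.24 and did not pass the adjusted test.

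In the thioredoxin and peroxiredoxin system 1 of 9 genes was upregulated, the reductase, and the median log2FC was 0.06. TXNRD1, cytosolic thioredoxin reductase, had normalized counts of 12363, 12182 and 12325 in the GFP libraries and 15969, 15654 and 15381 in the NRF2 libraries. The replicates lay close together and the groups well apart (1.27-fold, log2FC 0.35, SE 0.0330, Benjamini-Hochberg adjusted p 2.95e-06 by edgeR's quasi-likelihood test). TXN, its substrate thioredoxin, had 5501, 5795 and 5601 against 5773, 5843 and 5799, with overlapping groups and a log2FC interval from -0.03 to 0.12. PRDX1 and PRDX6, peroxidases that are recycled by thioredoxin or glutathione, had intervals from -0.02 to 0.13 and from -0.11 to 0.03. SRXN1, sulfiredoxin, which repairs oxidized peroxiredoxins, had 149.8, 150.2 and 153 against 178, 176 and 151, so NRF2 replicate 3 lay within the GFP range. Its interval, from -0.05 to 0.36, did not exclude a change past the threshold.

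Quinone, epoxide and conjugation enzymes held 4 DEGs among 17 tested genes, with a median log2FC of 0.17, and all 17 were higher in NRF2 cells. EPHX1, microsomal epoxide hydrolase, had normalized counts of 1613, 1700 and 1618 against 2145, 2138 and 2218 (log2FC 0.40, SE 0.0425). PTGR1, which reduces prostaglandins and lipid enals, had 443, 456 and 462 against 643, 589.8 and 571 (log2FC 0.40, SE 0.0634). NQO1, the quinone reductase often used as a readout of NRF2, was already abundant, with 16775, 17459 and 16923 against 19705, 20726 and 21136. Its groups did not overlap, yet the rise was small (log2FC 0.27, SE 0.0356, Benjamini-Hochberg adjusted p 2.54e-04 by edgeR's quasi-likelihood test), short of the fold threshold in every leave-one-out fit. CES1, a carboxylesterase, was nearly absent from GFP cells, with 1 read over the 3 GFP libraries and 33 over the 3 NRF2 libraries, a ratio of 44.8 with an exact counting interval from 7.50 to 1823. GSTA1, a glutathione transferase, was upregulated at low counts (log2FC 0.73) but was called in 1 of the 6 leave-one-out fits, that without GFP with Cyss replicate 1, and its log2FC there and in the others ran from 0.64 to 0.88. The intervals cover counting error only. CES1 and GSTA1 were not called with DESeq2's Wald test, and of these only CES1 was called with its independent filtering off.

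In heme and iron handling, 3 of 10 genes were upregulated and the median log2FC was 0.22. HMOX1, heme oxygenase 1, had normalized counts of 2039, 2156 and 1995 in the GFP libraries and 3453, 3393 and 3518 in the NRF2 libraries. The groups did not overlap (1.67-fold, log2FC 0.74, SE 0.0414, Benjamini-Hochberg adjusted p 2.48e-09 by edgeR's quasi-likelihood test). FTL, the ferritin light chain, was the most abundant upregulated DEG, with 54572, 62632 and 58536 against 71903, 73594 and 75409. Its log2FC of 0.33 sat at the threshold, and it lost its call without NRF2 with Cyss replicate 3 or GFP with Cyss replicate 1, within a range of 0.28 to 0.37. The processed copies FTLP3 and FTLP2 were upregulated by 0.33 and 0.37 on the log2 scale, share sequence with FTL and are uncertain. FTLP3 lost its call without NRF2 with Cyss replicate 2 or 3 or GFP with Cyss replicate 1 or 3 (range 0.28 to 0.41), and FTLP2 without NRF2 with Cyss replicate 1 or 2 or GFP with Cyss replicate 1 (range 0.26 to 0.47). BLVRB, biliverdin reductase B, lay just under the threshold, with 614, 740.2 and 658 against 822, 823 and 872 (log2FC 0.32), and was called without NRF2 with Cyss replicate 1 or 2 or GFP with Cyss replicate 2 (range 0.26 to 0.39). FTH1, the ferritin heavy chain, had 5802, 6550 and 6733 against 6573, 6054 and 7269, with overlapping groups and an interval from -0.06 to 0.18. SLC40A1, the iron exporter ferroportin, was upregulated at 7.27 to 13.9 against 22.7 to 24.0 normalized counts (log2FC 0.98) and was called in 1 of the 6 leave-one-out fits, that without GFP with Cyss replicate 2 (range 0.75 to 1.14). It was not called with DESeq2's Wald test, with or without independent filtering.

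None of the 6 genes of NADPH supply and the pentose phosphate pathway was called, although 5 of them passed the test below the fold threshold and the median log2FC was 0.23. TALDO1, transaldolase, had 3344, 3583 and 3471 normalized counts against 4244, 4371 and 4299 (log2FC 0.31, SE 0.0388). The groups did not overlap, and TALDO1 passed the threshold without GFP with Cyss replicate 2, with a log2FC of 0.33. ME1, TKT and PGD, which also feed NADPH production, rose by 0.24, 0.22 and 0.21 on the log2 scale. IDH1, cytosolic isocitrate dehydrogenase, had 2749, 2811 and 2820 against 2779, 2777 and 2820, and its interval ran from -0.08 to 0.08.

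Of the other reported NRF2 targets, 4 of 10 tested were upregulated, with a median log2FC of 0.36. OSGIN1, an oxidative stress-induced growth inhibitor, had 347, 366 and 350.5 normalized counts in the GFP libraries and 741, 746 and 692 in the NRF2 libraries (2.05-fold, log2FC 1.03, SE 0.0619). LUCAT1, a long noncoding RNA, had 21.8, 27.9 and 37.1 against 94.7, 121 and 125 (log2FC 1.98, SE 0.178). PANX2, a pannexin channel protein, had 90.8, 136 and 121 against 239.9, 207 and 211 (log2FC 0.90, SE 0.122). In all 3 the groups were apart. LUCAT1 was not called with DESeq2's Wald test, but was called with that test's independent filtering off. TRIM16L had 1126, 1123 and 1137 against 1635, 1656 and 1638 (log2FC 0.54, SE 0.0436), while TRIM16, its near-identical relative, had a log2FC of 0.22, and reads of this pair may be shared. FOSL1, an AP-1 subunit, and IL11, a cytokine, had log2FC of 0.00818 and -0.00928.

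**Figure D1:**
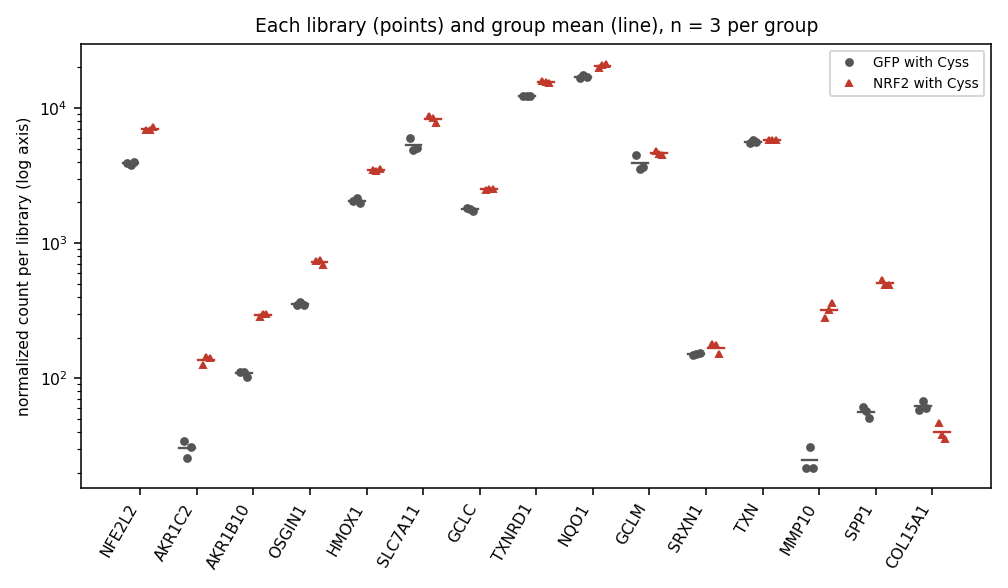
Normalized counts (log axis) in each GFP with Cyss library (grey circles) and NRF2 with Cyss library (red triangles) for NFE2L2, 11 canonical targets, MMP10, SPP1 and COL15A1, with a line at each group mean (n = 3). The groups overlap for SRXN1 and TXN and are apart for the others, by the widest gap for MMP10.

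Most DEGs lay outside the canonical lists, 222 upregulated and 38 downregulated. So did most genes, since 72 of the 17420 genes tested were canonical. Among all genes tested 1.41% were upregulated and 0.218% downregulated. The 222 include the uncertain processed copies of AKR1B10, AKR1B1 and FTL. Apart from SLC22A25, MMP10 and SPP1 had the largest log2FC among the annotated genes named by the rule. SPP1, osteopontin, a secreted matrix and cytokine-like phosphoprotein, had 60.9, 57.3 and 50.7 normalized counts in the GFP libraries and 538, 490.2 and 486 in the NRF2 libraries. The groups differed 8.93-fold (log2FC 3.16, SE 0.0964, Benjamini-Hochberg adjusted p 3.42e-13 by edgeR's quasi-likelihood test). MMP10, the matrix metalloproteinase stromelysin 2, had 21.8, 31.0 and 21.7 against 280.3, 322 and 363 (12.8-fold, log2FC 3.67, SE 0.147). IL8, the neutrophil chemokine CXCL8, had 1102, 970.2 and 1061 against 2344, 2252 and 2406 (2.24-fold, log2FC 1.16, SE 0.0508). These 3 genes encode secreted proteins, and in each the groups were far apart.

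Several genes for membrane proteins rose from low levels. SLC22A25, an organic anion transporter family member, had 2 reads over the 3 GFP libraries and 141 over the 3 NRF2 libraries, a ratio of 95.7 with an exact counting interval from 26.0 to 798. SCN1A, a neuronal sodium channel, had 20.9, 16.3 and 19.9 normalized counts against 88.4, 70.03 and 108 (4.67-fold, log2FC 2.22, SE 0.204). CALCRL, the calcitonin receptor-like receptor, had 91.7, 68.1 and 90.6 against 193, 212 and 221 (2.52-fold, log2FC 1.34, SE 0.118). ACKR3, a scavenging chemokine receptor, had a log2FC of 1.51 from 14.5 to 21.8 up to 50.3 to 60.6 normalized counts. In these 4 genes the groups did not overlap. TMOD1, an actin pointed-end capping protein, and ANXA10, an annexin, rose by 1.35 and 1.31 on the log2 scale. The unannotated transcripts RP11-227H15.4, RP5-952N6.1 and RP11-443P15.2 rose by 3.96, 1.36 and 1.35. With DESeq2's Wald test SLC22A25, SCN1A, ACKR3, TMOD1, ANXA10, RP11-227H15.4 and RP5-952N6.1 were not called. All of these were called with that test's independent filtering off.

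Some upregulated DEGs were not seen in GFP cells at all, and are named after their values were seen. ATP1B4, a relative of the sodium pump beta subunits, had 0 reads in the 3 GFP libraries and 79 in the NRF2 libraries, in which it had 22.7, 40.5 and 27.3 normalized counts. It was at least 35.8-fold higher, set against a floor of 3 counts over the GFP group. TREML3P, a pseudogene, had 0 against 60 reads and was at least 27.2-fold higher. Neither ATP1B4 nor TREML3P was called with DESeq2's Wald test, but both were called with its independent filtering off. RP11-146N23.1 was also called from 0 reads in GFP cells, but it rested on NRF2 replicate 3, with 73.9 normalized counts against 1.26 and 0 in the other NRF2 libraries, and is not read as a response of the group. NRCAM, a neuronal cell adhesion molecule, also named after its values were seen, had 342, 345 and 379 normalized counts against 835, 824 and 804 (2.31-fold, log2FC 1.21, SE 0.0615).

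Of the 38 downregulated DEGs, 9 fell by more than 2-fold, with log2FC from -1.54 to -1.02, and all 9 averaged under 50 normalized counts in GFP cells. FAM49A, a regulator of RAC1 signaling named after its values were seen, was one of these, with 36.3, 25.6 and 30.8 normalized counts in the GFP libraries and 13.9, 10.9 and 15.9 in the NRF2 libraries. The groups were apart, and FAM49A fell by 1.17 on the log2 scale (SE 0.260) and was called in all 6 leave-one-out fits (range -1.31 to -1.03), but not with DESeq2's Wald test. RGS5, a regulator of G protein signaling known from pericytes, had 1470, 1406 and 1405 normalized counts in the GFP libraries and 1064, 1038 and 949 in the NRF2 libraries. The groups were apart, and RGS5 fell by 0.49 on the log2 scale (SE 0.0517, Benjamini-Hochberg adjusted p 1.48e-05 by edgeR's quasi-likelihood test). ABI3BP, an extracellular matrix protein, had 189.8, 232 and 203 against 141, 154 and 124 and fell by 0.58 (SE 0.108). SEMA3D, a secreted semaphorin, fell by 0.40, and CMKLR1, the chemerin receptor, by 0.41. RP11-48O20.4, an unannotated transcript, had 101, 105 and 120.5 against 60.6, 54.7 and 54.6 and fell by 0.94 (SE 0.135), the largest decrease among the DEGs named by the rule. Like FAM49A, RP11-48O20.4 was called in all 6 leave-one-out fits but not with DESeq2's Wald test. Both genes were called with that test's independent filtering off.

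The remaining downregulated DEGs named by the rule depended on single libraries. COL15A1, a basement membrane collagen, fell by 0.64 on the log2 scale, from 58.1, 68.1 and 59.8 to 46.7, 38.3 and 35.2 normalized counts, and lost its call without NRF2 with Cyss replicate 2 or 3 or GFP with Cyss replicate 3 (range -0.76 to -0.56). ZNF799 and ZNF57, zinc finger genes, fell by 0.55 and 0.48, ALPL, alkaline phosphatase, by 0.38, and the pseudogenes RPSAP52 and HSP90AA4P by 0.37 and 0.33. Each of these 5 lost its call without NRF2 with Cyss replicate 2, as did ZNF799 without NRF2 with Cyss replicate 3 or GFP with Cyss replicate 3, ZNF57 and RPSAP52 without NRF2 with Cyss replicate 1 or GFP with Cyss replicate 3, ALPL without GFP with Cyss replicate 2, and HSP90AA4P without NRF2 with Cyss replicate 1 or GFP with Cyss replicate 2 or 3, over ranges of -0.72 to -0.44, -0.60 to -0.38, -0.46 to -0.30, -0.45 to -0.31 and -0.45 to -0.22 in that order. COL17A1, an epithelial transmembrane collagen, and the transcripts RP11-528A10.2 and RP11-259N19.1 fell by 0.45, 0.62 and 0.44, and were called only without GFP with Cyss replicate 1, GFP with Cyss replicate 2 and NRF2 with Cyss replicate 3 respectively (ranges -0.51 to -0.41, -0.76 to -0.48 and -0.58 to -0.35). SEMA3D lost its call without NRF2 with Cyss replicate 3 (range -0.47 to -0.34). COL15A1, ZNF799, ZNF57, COL17A1, RP11-528A10.2 and RP11-259N19.1 were also not called with DESeq2's Wald test. Of these, only ZNF799 was called with that test's independent filtering off.

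Other processes were examined through lists of genes. None of 32 proteasome genes was a DEG, and 31 had an interval within 0.32 in size, with a median log2FC of -0.04. None of 26 targets of ATF4, the amino acid stress factor, was a DEG (median 0.02), nor were any of 24 cell cycle genes (median -0.04), 17 autophagy and lysosome genes (median 0.01) or 13 mitochondrially encoded mRNAs (median -0.06). The median over all genes tested was -0.00173, and 10920 of the 17420 had an interval within 0.32. DEGs made up 1.62% of all genes tested, so lists this short would often hold none. In NRF2 cells 25 of the 32 proteasome, 16 of the 24 cell cycle and 11 of the 13 mitochondrial genes were lower. So were 11 of the 26 ATF4 targets, 7 of the 17 autophagy genes and 8812 of all 17420. Of the cell cycle genes 7 passed the test below the fold threshold, where 879 of all 17420 did so. At these depths, changes in most members of these lists were below the DEG threshold.

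Scattered members of other lists were DEGs. Of 19 immediate early genes EGR1, a serum- and ERK-responsive zinc finger factor, was the only DEG, with 171, 158 and 199 normalized counts against 298, 312 and 289 (log2FC 0.77, SE 0.0919). IL8 and TNIP3, an inhibitor of NF-kappaB signaling (log2FC 0.64), were the DEGs among 18 inflammatory genes. IFI6 and RSAD2 were those among 21 interferon-stimulated genes, with log2FC of 0.44 and 1.47. IFI6 lost its call without NRF2 with Cyss replicate 1 (log2FC 0.29), in which it stood at 1441 normalized counts against 1052 and 1115 in the other NRF2 libraries, and RSAD2 without NRF2 with Cyss replicate 1 or 3 or GFP with Cyss replicate 2 (range 1.17 to 2.15). In the list of matrix, adhesion and TGF-beta genes, SPP1, INHBB, the activin beta B subunit, and MMP3, stromelysin 1, rose, 3 of 42 (0.46 for each of the last 2). In that list 1 other member was downregulated. SREBF1, the regulator of lipid synthesis, rose by 0.42, the only DEG of 19 cholesterol and fatty acid genes. PGR, the progesterone receptor, rose from 8.17, 5.42 and 0.91 to 26.5, 18.6 and 19.3 normalized counts (4.30-fold), still a low level. PGR and RSAD2 were not called with DESeq2's Wald test, but both were called with its independent filtering off. Of 34 genes that the study named, most of them from these libraries, 10 were upregulated and none downregulated. The list also holds the expressed gene NFE2L2 and KEAP1, CUL3 and SLC7A11, which the study named on other grounds. NFE2L2 and SLC7A11 are among the 10. Since most of that list was chosen on these samples, its direction is not independent evidence.

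The with-Cyss response was then compared with the effect of NRF2 without Cyss, measured in libraries that share none with it. Without Cyss, 1034 of 17289 genes tested were upregulated by NRF2 (5.98%) and 708 were downregulated (4.1%). Of the 245 genes upregulated with Cyss, 103 were upregulated without Cyss as well, which is 42.0% of the former list and 9.96% of the latter, and 4 were downregulated. They included 15 of the 22 canonical targets, 87 of the 222 noncanonical genes and NFE2L2. Of the 38 genes downregulated with Cyss, 3 were downregulated without Cyss (7.89% of the former list and 0.424% of the latter), namely RP11-48O20.4, RGS5 and SEMA3D, and 4 were upregulated, among them CMKLR1, MYB and RPSAP52. MYB, a transcription factor named here after its values were seen, fell by 0.39 on the log2 scale with Cyss and lost that call without NRF2 with Cyss replicate 2 or 3 or GFP with Cyss replicate 1 (range -0.47 to -0.30). Without NRF2 with Cyss replicate 1 the shared upregulated genes numbered 81, and the shared downregulated ones numbered 5 without GFP with Cyss replicate 2 or NRF2 without Cyss replicate 3.

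MMP10 and SPP1 rose in both media, with log2FC of 3.67 and 3.16 with Cyss and 3.48 and 3.29 without. NFE2L2 itself rose by 0.84 and 0.79. A test of the difference between media, as the interaction of population and medium over all 12 libraries, was passed by 76 of 281 with-Cyss DEGs, where 15.1% of all 17653 genes tested passed it. The effect was lower without Cyss in 51 of the upregulated DEGs and higher in 10, and 15 were downregulated DEGs. The DEGs were chosen on the with-Cyss libraries, which also enter this interaction, so the choice favors a smaller effect without Cyss, and these counts are a description. AKR1C1 rose by 1.33 with Cyss and 0.87 without, an interaction of -0.44 (SE 0.0622), whereas IL8 rose by 1.16 and 2.29. CMKLR1 fell by 0.41 with Cyss and rose by 0.35 without, so the sign itself differed. The number of such genes was 46, 42 and 50 without NRF2 with Cyss replicate 1, NRF2 with Cyss replicate 3 and GFP with Cyss replicate 3, of the smaller DEG lists of those fits.

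**Figure D2:**
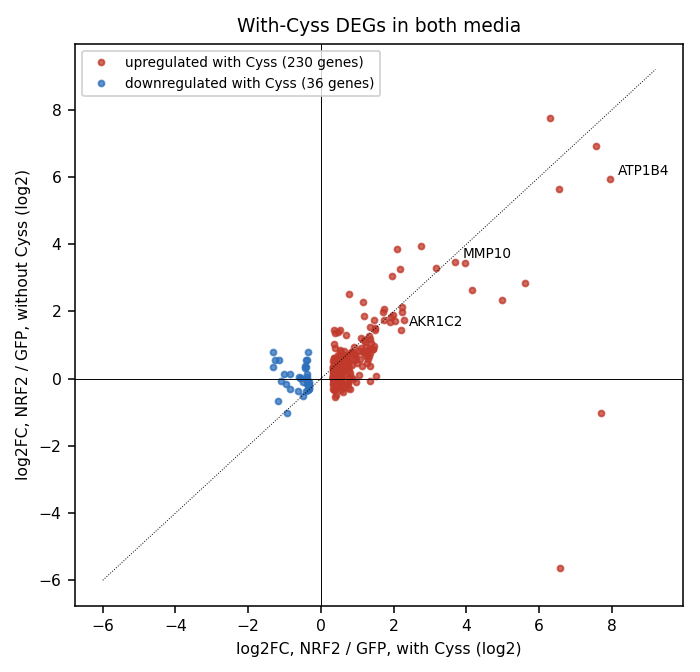
Log2FC of NRF2 over GFP without Cyss (vertical axis, log2) against that with Cyss (horizontal axis, log2) for the with-Cyss DEGs tested in both media, 230 upregulated (red) and 36 downregulated (blue). The dotted line marks equal effects. Of the upregulated genes 190 lie above 0 on the vertical axis, and of the downregulated genes 19 lie below it.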

How the data were processed

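The samples were 12 mRNA-seq libraries (TruSeq) of Hs 578T cells, grouped by GEO's genotype and treatment labels. According to the submitters' processing notes, single-end reads were aligned to hg19 with TopHat2 2.1.0 and Bowtie and counted on exons with HTSeq 0.11.2, without strand by the study's methods. The deposited values are raw counts per gene symbol made by the authors, with no normalization. The annotation used for counting was not given in the sources used here. Unassigned rows and 523 rRNA genes were removed.

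The 6 with-Cyss libraries were normalized by TMM after keeping genes that averaged at least 10 normalized counts in either group, and tested with edgeR 4.0.16 (R 4.3.3; quasi-likelihood test, Benjamini-Hochberg adjustment). The 6 libraries without Cyss were fitted apart in the same manner, and the interaction used all 12. Normalized counts are counts divided by TMM factors scaled to a geometric mean of 1. Of 55765 symbols, 33529 matched the GENCODE annotation lifted to GRCh37 and 1847 matched under a newer name. Exact intervals of ratios of reads used SciPy 1.17.1, and plots used Python 3.11.15 with matplotlib 3.10.9. On simulated counts for 16979 genes of this comparison, 93% of 100 genes changed by 0.5 and 100% of 100 changed by 1 (log2) were recovered, with 8 false calls. The changed genes were drawn only from those averaging at least 50 normalized counts, so recovery at lower counts was not tried.

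The members and lists were chosen with earlier results of these data known. Named genes were the members of the lists, and among DEGs the 15 upregulated and 10 downregulated with the largest log2FC (mean of at least 50 in the higher group, groups not overlapping), the 5 per direction with the highest mean and the 5 with the smallest adjusted p. The alternatives comprised DESeq2 1.42.0 (size factors and Wald test), library size only, filterByExpr, no filter, all 12 libraries in one fit, a replicate block, other thresholds, rRNA genes kept, thinned counts and leaving out each library. TMM before filtering, the newer form of edgeR's test and DESeq2 without independent filtering were chosen after seeing the data. A few genes and 1 sequence are not reported here, though counts over lists and over all genes include them.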

Additional observations from a re-analysis of the deposited data

Results flagged for a closer look

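Among 108 named genes, the effect of NRF2 differed between media in 52, where 15.1% of all 17653 genes tested differed. The rule was a Benjamini-Hochberg adjusted p under 0.1 for the interaction over all genes tested in edgeR's quasi-likelihood test. Differences below are the log2FC without Cyss minus that with Cyss. All 52 kept their sign with DESeq2's size factors and with library size only. NQO1 no longer passed with the former, nor RP11-528A10.2 and SLC6A6 with the latter, which moved the median difference over all genes from -0.01 to -0.07.

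Canonical targets made up 34 of the 52 (of 71 among the 108), 28 of them lower without Cyss. Among aldo-keto reductases the differences were AKR1A1 -0.21, AKR1B10 -0.53, AKR1C1 -0.44, AKR1C2 -0.72, AKR1C3 -0.38 and AKR7A2 -0.35. Quinone, epoxide and conjugation enzymes had differences of ALDH3A2 -0.36, CBR1 -0.26, CBR3 -0.50, GSTA4 -0.30, GSTM1 -0.33, GSTP1 -0.27, MGST1 -0.20, NQO1 -0.16, NQO2 -0.28 and PTGR1 -0.29. Heme and iron genes had ABCB6 -0.49, BLVRA -0.23, BLVRB -0.41 and FTL -0.26, with FTLP3, a copy of FTL, at -0.30. NADPH genes had IDH1 -0.20, PGD -0.18, TALDO1 -0.20 and TKT -0.17, and the remaining targets had PIR -0.29, SLC3A2 -0.28, TRIM16L -0.52 and TXN -0.23. The 6 canonical targets with a higher effect without Cyss were FOSL1 at 0.49, FTH1 at 0.35, IL11 at 0.82, SLC6A6 at 0.17, TXNRD1 at 0.27 and UGDH at 0.25.

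Noncanonical genes named here were chosen on the with-Cyss libraries that also enter the interaction, which favors a smaller effect without Cyss. Those with a lower effect without Cyss were ACKR3 at -1.41, CALCRL at -0.94, IFI6 at -0.42, INHBB at -0.69, RP5-952N6.1 at -1.43 and SREBF1 at -0.44. Higher effects were those of EGR1 at 1.76, IL8 at 1.14 and MMP3 at 0.93. Genes downregulated with Cyss had higher values without it, namely ABI3BP 0.60, ALPL 0.53, CMKLR1 0.78, COL17A1 0.78, RP11-259N19.1 0.83, RP11-528A10.2 0.68, RPSAP52 1.17 and ZNF799 0.58.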

How the results depend on the processing

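Over all alternatives run, no named gene or NFE2L2 reversed, and none of the 283 DEGs changed sign. Of 2410 values of 134 named genes, 2294 kept their side of the threshold, 103 lost a call and 13 gained one. Canonical targets upregulated stayed within 1.5 times of 22 except with no fold threshold (40).

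Upregulated DEGs numbered 91 with DESeq2's Wald test (5742 genes got no adjusted p), 154 without its independent filtering and 760 with no fold threshold, and 142 to 253 with a library left out. Downregulated DEGs numbered 14, 15 and 402 under those 3 settings, 66 with no low-count filter, 22 with all 12 libraries in one fit, 17 at an adjusted p under 0.05, and 15 to 56 with a library left out. Genes also upregulated without Cyss numbered 44 with DESeq2's Wald test and 312 with no fold threshold (81 to 105 with a library left out). Genes also downregulated numbered 5 with no filter, 105 with no fold threshold and 9 with thinned counts (2 to 5 with a library left out). DEGs with an interaction numbered 40 with DESeq2's Wald test, 39 without its independent filtering, 40 at an adjusted p under 0.05, 357 with no fold threshold, and 42 to 98 with a library left out. The canonical count ran from 19 to 24 and the log2FC of NFE2L2 from 0.81 to 0.85 with a library left out. TMM before filtering gave 224 upregulated and 47 downregulated genes.

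Deviations from the group means correlated at 0.0995, -0.235 and 0.140 between same-numbered libraries, and from -0.29 to 0.22 between different-numbered ones. The values show no pairing by replicate number, but with 3 libraries per group they cannot exclude it. With a replicate block, 266 genes were upregulated, 47 downregulated and 6 of these also downregulated without Cyss, and the other results stayed within 1.5 times.

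Depth limits the low genes, since the NRF2 libraries were the shallower group and 73 upregulated and 12 downregulated DEGs averaged under 50 normalized counts.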

Other observations

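Further upregulated DEGs with Cyss lay outside the lists and the naming rule, and were picked after their values were seen. F2RL2, the protease-activated receptor PAR3, had 136, 152 and 144 normalized counts in the GFP libraries and 306, 327 and 344 in the NRF2 libraries (2.26-fold, log2FC 1.18, SE 0.0860). The groups were apart, and it was called in all 6 leave-one-out fits. TNFSF9, the ligand of 4-1BB, had 180, 208 and 234 against 383, 304 and 318 (log2FC 0.69, SE 0.102), and TNFSF18, the ligand of GITR, had 3.63, 0.77 and 1.81 against 46.7, 32.8 and 34.1. TNFRSF9, the 4-1BB receptor, rose by 0.54 on the log2 scale and lost its call without NRF2 with Cyss replicate 1 (range 0.47 to 0.67). SLCO2B1, an organic anion transporter, had 1 read in the GFP libraries and 98 in the NRF2 libraries, a ratio of 133 with an exact counting interval from 23.3 to 5308. CYP4F11, a fatty acid hydroxylase, had 10 against 52 reads. With DESeq2's Wald test TNFSF18, TNFRSF9, SLCO2B1 and CYP4F11 were not called, but all of them were with its independent filtering off.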
